A study of Saccharomyces cerevisiae with 6 samples.

Results

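The 10 genes described here are BAS1 and PHO2, the regulators of yeast purine synthesis, and 8 of the ADE genes, which encode enzymes of that pathway: ADE1, ADE2, ADE3, ADE4, ADE8, ADE12, ADE13 and ADE17. They were chosen by gene symbol from the 5449 budding yeast genes that could be named on the array, and all 10 were measured, each by 1 probe set. The choice was made with the values of the same strain comparison known, the lower BAS1 mRNA of the mutant among them, so the values of these 10 genes are given as a description. Where they are counted against the threshold used for all genes, nothing is drawn from the count. RNA came from Saccharomyces cerevisiae strain PY014, with wild-type histone H2B, and strain WY317, in which alanine replaces lysine K111 of H2B. Cultures were in YPD, a rich medium with glucose, and were harvested in mid-log growth at OD600 of 0.35 to 0.7, and each strain has 3 single-colour arrays, 6 in all. The wild-type arrays are labelled as the control of a second H2B mutant, R102A, too, which was not analysed here. The labels give no other allele, and do not say whether a strain is 1 clone or whether its 3 samples came from separate cultures, so the spread between arrays may be partly technical.

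Purine nucleotides are built on phosphoribosyl pyrophosphate (PRPP) by a chain of enzymes that ends in inosine monophosphate (IMP), from which separate branches make AMP and GMP. In budding yeast most genes of the chain are switched on by Bas1, a Myb-type DNA-binding protein, acting with the homeodomain protein Pho2. The pair is activated when intermediates of the pathway build up, and ADE transcription is lower when cells can take up adenine from the medium. Bas1 is also known to act on some genes of histidine synthesis and of the one-carbon pathway, which supplies folate-bound carbon to purine synthesis.

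Intensities are linear values as deposited, on a scale that the authors had already made common to the arrays. A value of one probe set cannot be set against that of another as a difference in mRNA amount, so levels are compared here only within a gene. Array means over all probe sets lay between 146.4 and 148.2, and arrays of the same strain correlated across genes at 0.997 to 0.998. Probe sets whose gene identifier is absent from the budding yeast table were taken as those of another organism and serve as background. They had a 99th percentile of 3.7, and all 10 genes lay above it on every array. Of the mating-type genes, those of MATa cells read 386.6 or more (MFA1, MFA2 and STE2), and those of MATalpha cells read 1.8 to 5.0 (MF(ALPHA)1), 7.9 to 10.5 (MF(ALPHA)2) and 10.8 to 21.7 (STE3, with a 1.83-fold lower mutant mean and an adjusted p of 0.00383 in limma). Log2 changes are differences of log2(intensity + 32), mutant minus wild type, a scale that understates the change of dim genes.

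BAS1 mRNA was lower in the H2B K111A strain. It read 249.1, 280.3 and 211.9 on wild-type arrays 1 to 3, and 164.0, 205.4 and 164.1 on mutant arrays 1 to 3. The 3 mutant values lay under the 3 wild-type values, but wild-type array 3 and mutant array 2 were close to each other. The means were 247 ± 34.2 and 178 ± 23.9 (SD, n = 3 each), a 1.39-fold lower level in the mutant. The log2 change was -0.41, with a standard error of 0.098. Of all tested genes 0.275% had a change this low or lower, a rank given as a description since BAS1 was chosen with this change known. Leaving out 1 array at a time moved the change between -0.50 and -0.33.

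BAS1 was also among the genes that varied most between arrays of the same strain. Its pooled within-strain SD on the log2 scale was 0.17, at percentile 98.9 of the genes above background. The highest wild-type value was 1.32 times the lowest, and the highest mutant value 1.25 times the lowest. In wild type array 2 lay 13.4% above the strain mean and array 3 lay below it (-14.2%). In the mutant array 2 lay 15.5% above its mean, and the other arrays were each below it by nearly equal amounts.

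PHO2, the partner of Bas1 and also of the phosphate regulator Pho4, read 71.8, 74.3 and 72.1 in wild type and 73.8, 74.5 and 80.5 in the mutant. Its strains overlapped, and no array was low in the way the mutant arrays were for BAS1. The means were 72.7 ± 1.37 and 76.3 ± 3.68 (SD, n = 3 each), with a log2 change of 0.05 and a standard error of 0.037.

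**Figure D1:**
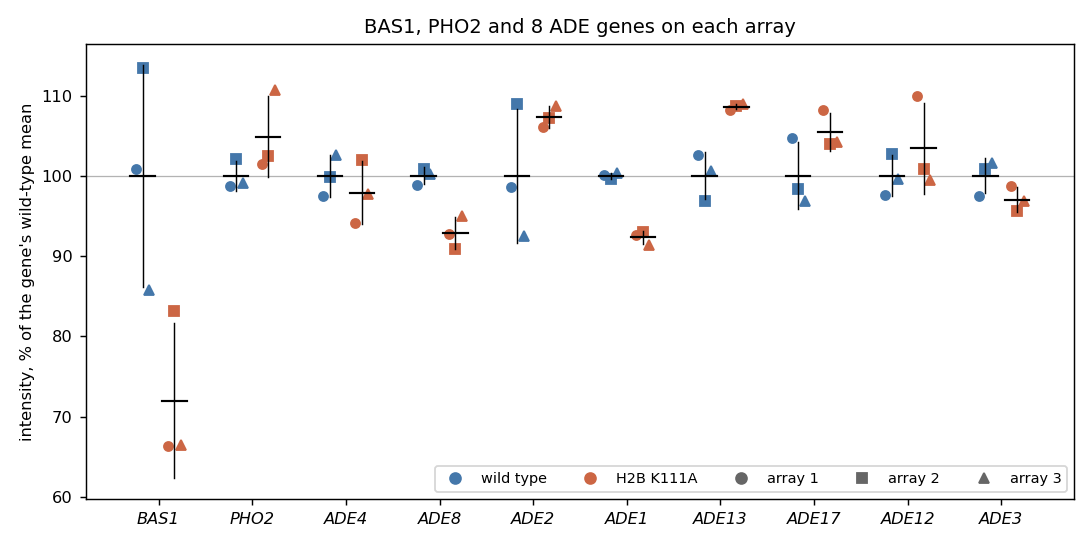
Intensity of each gene on each array, as a percentage of that gene's wild-type mean (y axis, which does not start at 0), for wild type (blue) and H2B K111A (orange); marker shapes give the array number, horizontal bars the strain means and vertical lines ± 1 SD (n = 3). BAS1 is the gene whose mutant mean lies farthest from 100%, at 178 against 247, and the ADE genes lie on both sides of 100%.

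Of the 8 ADE genes 4 had a log2 change below 0 and 4 above it, between -0.11 and 0.11. Their median log2 change was 0.009, beside -0.0005 over all genes tested. The log2 change of BAS1, at -0.41, stands beside these as a description, with no test of the difference.

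Among the enzymes that build IMP, ADE4 encodes the amidotransferase that commits PRPP to the pathway. It read 302.3, 309.6 and 318.3 in wild type and 291.7, 316.0 and 303.1 in the mutant. These ranges overlapped, with means of 310 ± 8.01 and 304 ± 12.2 (SD, n = 3 each) and a log2 change of -0.03.

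ADE8 encodes the glycinamide ribonucleotide transformylase, which adds a one-carbon unit from folate. It read 318.8, 325.4 and 323.4 in wild type against 299.2, 293.1 and 306.3 in the mutant. All 3 mutant arrays lay under all 3 wild-type arrays, 1.08-fold lower on average, with a log2 change of -0.10 and a standard error of 0.033.

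ADE2 encodes the aminoimidazole ribonucleotide carboxylase, whose loss gives yeast colonies a red colour. Its wild-type arrays spread widely, at 105.9, 117.0 and 99.3, while the mutant arrays read 113.9, 115.2 and 116.8. The mutant values all fell within the wild-type range, and the means were 107 ± 8.94 and 115 ± 1.45 (SD, n = 3 each). In the wild-type strain ADE2 was highest on array 2 and lowest on array 3, as BAS1 was, but in the mutant the array with the highest BAS1 had the middle ADE2 value.

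ADE1 encodes the next enzyme of the chain, SAICAR synthetase. It read 387.6, 385.6 and 388.3 in wild type and 358.7, 360.0 and 353.9 in the mutant. The strains did not overlap and each was unusually tight: the within-strain SD of ADE1 was lower than that of nearly all genes above background, at percentile 0.283. The means were 387 ± 1.40 and 358 ± 3.21 (SD, n = 3 each), 1.08-fold lower in the mutant, with a log2 change of -0.11 and a standard error of 0.031.

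ADE13 encodes adenylosuccinate lyase, which acts both in the chain to IMP and in the last step to AMP. It moved the other way, from 445.8, 420.7 and 437.3 in wild type to 470.5, 472.2 and 473.4 in the mutant. Every mutant array lay above every wild-type array, by 1.09-fold on average, with a log2 change of 0.11 and a standard error of 0.034.

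ADE17 encodes one of a pair of isozymes that carry out the closing steps to IMP. It read 234.4, 220.1 and 216.8 in wild type and 242.0, 232.7 and 233.2 in the mutant. Wild-type array 1 lay within the mutant range, and the log2 change was 0.07 with a standard error of 0.038.

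On the AMP branch, ADE12 encodes adenylosuccinate synthetase. It read 748.6, 787.5 and 763.5 in wild type and 842.9, 773.1 and 762.8 in the mutant. Mutant array 1 stood above the rest and the other mutant arrays lay within the wild-type range, for means of 767 ± 19.6 and 793 ± 43.6 (SD, n = 3 each).

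ADE3 encodes the cytoplasmic C1-tetrahydrofolate synthase, which makes the folate forms that purine synthesis uses. It read 851.6, 880.9 and 887.3 in wild type against 861.9, 835.0 and 845.6 in the mutant. The strains overlapped through wild-type array 1, and the log2 change was -0.04.

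At an adjusted p under 0.05 in limma, over all genes, 14.5% of genes differed between the strains, 6.92% higher and 7.62% lower. Of the 10 genes 1 lay past that threshold, BAS1, and 0 of the 8 ADE genes did. At an unadjusted p under 0.05 in limma 3 of the 8 did, beside 1729 of the 5449 genes. The adjusted p of BAS1 in limma was 0.0278 in the main fit. It was 0.0705 without wild-type array 1, 0.0652 without wild-type array 2, 0.0856 without mutant array 1 and 0.103 without mutant array 3. With a pseudocount of 1 it was 0.0647, so BAS1 passed in none of these changed settings. BAS1 did pass without wild-type array 3 (0.013), without mutant array 2 (0.0232) and with the replicate number as a block (0.00963). With a pseudocount of 100, quantile normalization or median centring it passed too (0.0237 to 0.0428). With a pseudocount of 100 ADE1, ADE8 and ADE13 passed as well, 3 of the 8, and with quantile normalization ADE13 did (adjusted p in limma of 0.0253, 0.0475, 0.0362 and 0.031). Of all 5449 genes, 366 passed as higher and 406 as lower with that pseudocount, and 449 and 455 with quantile normalization. The arrays of the strains did not overlap for 4 of the 10 genes, beside 36.7% of all genes. BAS1, ADE1 and ADE8 were the 3 lower ones, beside 18.6% of all genes, and ADE13 the 1 higher, beside 18.2%. Nothing is read from these counts, since the genes were chosen on this comparison.

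The arrays also differ in BAS1 within each strain, which was not used in choosing the genes. In wild type BAS1 was 1.32 times as high on array 2 as on array 3. On the same arrays, 2 and then 3, ADE2 read 117.0 and 99.3, ADE12 787.5 and 763.5, ADE17 220.1 and 216.8, and ADE8 325.4 and 323.4, all higher on array 2 as BAS1 was. ADE1 read 385.6 and 388.3, ADE3 880.9 and 887.3, ADE4 309.6 and 318.3, and ADE13 420.7 and 437.3, all lower on array 2. In the mutant, where array 2 had the highest BAS1, ADE8, ADE3 and ADE17 were at their lowest on that array, ADE4 and ADE1 at their highest, and ADE2, ADE12 and ADE13 in between. Several of these differences were very small, as for ADE8 and ADE1 in wild type. In the mutant ADE17 read 232.7 on array 2 and 233.2 on array 3, and ADE13 ran only from 470.5 to 473.4. The order of the arrays alone therefore does not show whether a gene followed BAS1. With 3 arrays a strain no correlation was computed.

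**Figure D2:**
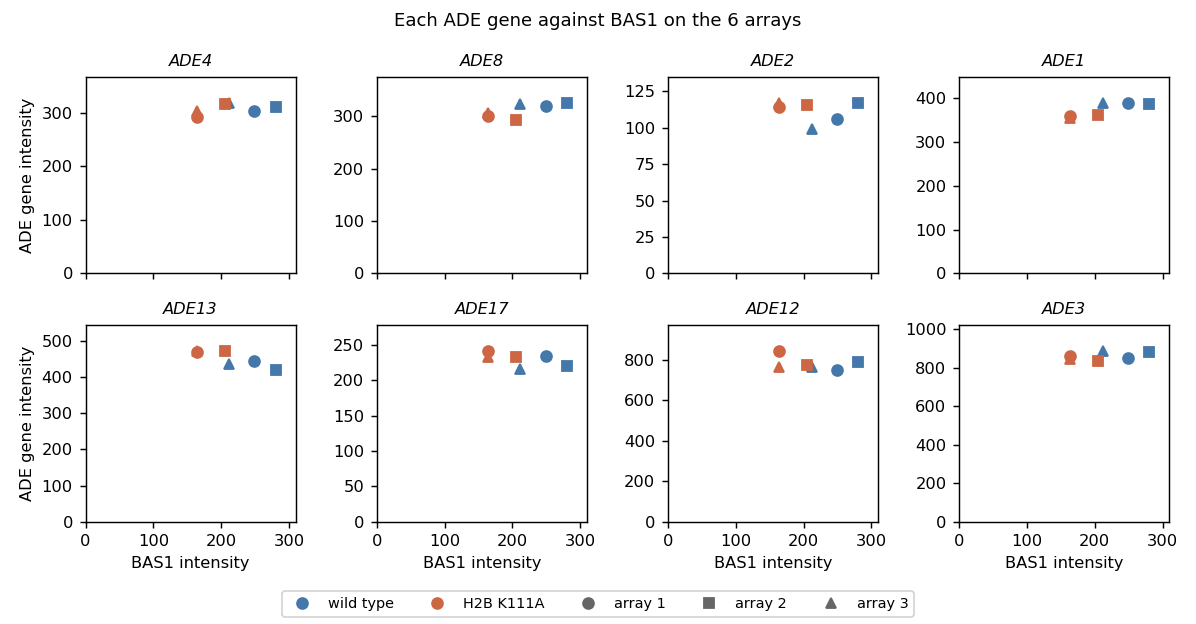
Intensity of each of the 8 ADE genes (y axis, from 0) against that of BAS1 (x axis, from 0) on the 6 arrays, 1 panel per gene, wild type in blue and H2B K111A in orange with marker shapes for the array number. BAS1 spans 164.0 to 280.3 while ADE1 spans 353.9 to 388.3, and ADE2 spans 99.3 to 117.0.

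The genes nearest to BAS1 in their pattern over the 6 arrays are given as a description. Likeness was the root mean square difference between the genes' log2 deviations from their own means over the 6 arrays, computed for 5304 genes above background. The strain difference is part of this measure, so a gene that differs little between the strains cannot lie near BAS1. The 5 nearest were AAD3, of a family of aryl-alcohol dehydrogenases (0.084), TDA2 (0.108), WSC2, a sensor of cell wall stress (0.11), YHR175W-A (0.11) and IPI1, of ribosome assembly (0.111). WSC2 read 277.3, 268.8 and 257.7 in wild type and 174.3, 220.2 and 204.2 in the mutant. The probe set of AAD3 is of a kind that can read related genes.

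BAS1 lies near the end of chromosome XI, with 7 protein-coding genes between it and the end in the order of the RefSeq R64 table. Of these 5 were measured. None of them, and none of the 4 genes on the other side, passed the test in limma, beside 14.5% of all genes. At an unadjusted p under 0.05 in limma 1 of these 9 passed, beside 1729 of the 5449 genes. With 9 genes nothing is read from these counts. The 1 was PCC1, on the other side and lower in the mutant, with a log2 change of -0.11 (adjusted p = 0.155 in limma). The 9 genes were picked by position after the BAS1 value was known. SKG1, the adjacent gene toward the end, read 219.1, 208.8 and 228.0 in wild type and 221.8, 221.1 and 218.8 in the mutant, with overlapping strains. UBP11, a ubiquitin protease gene on the other side, had a log2 change of 0.13 (adjusted p = 0.199 in limma). The silencing gene SIR1, next after SKG1, had a log2 change of 0.07 (adjusted p = 0.35 in limma), and the 5 genes toward the end all had changes above 0, between 0.01 and 0.10. FLO10 had non-overlapping strains with the mutant higher, as 18.2% of all genes had. SIR1, FLO10, NFT1, YKR104W and PCK1 were dim, with wild-type means of 12.7 to 40.1, and the log2 scale used understates their changes.

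**Figure D3:**
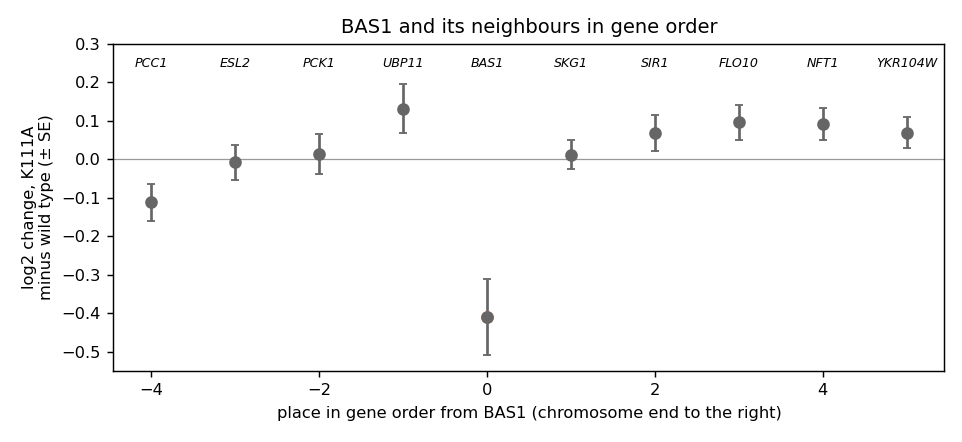
Log2 change, mutant minus wild type, with its standard error (y axis) for BAS1 and the measured genes on either side in gene order (x axis, in genes from BAS1, with the chromosome end to the right). BAS1, chosen with its change known, is at -0.41, and its neighbours, picked by position, lie between -0.11 and 0.13. The difference was not tested. The scale understates the changes of the dim neighbours SIR1, FLO10, NFT1, YKR104W and PCK1.

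Other genes of purine metabolism were read from 7 lists of 52 genes, of which 51 were measured. In limma 4 of these rose and 7 fell in the mutant, together 21.6% beside 14.5% of all genes, and the median log2 change was -0.003. By list the share was 20% for PRPP and for the branch to GMP, and 27.8% for salvage and uptake. It was 18.2% for one-carbon, 28.6% for histidine, and 0% for the de novo and regulator genes. The strains did not overlap for 26 of the 51, or 51%, beside 36.7% of all genes. The lists were chosen with earlier results of these data known, so no excess of changes is read from these shares. ADE5,7, an enzyme gene of the chain to IMP, was not analysed here. The other enzyme genes of that chain, ADE6 and ADE16, did not pass in limma, and 1 of them had an unadjusted p under 0.05. ADE6, for the formylglycinamidine synthase, read 919.6, 955.8 and 944.1 in wild type and 895.5, 914.9 and 859.3 in the mutant (adjusted p = 0.192). ADE16, the isozyme of ADE17, read 555.9, 608.4 and 588.4 against 652.0, 647.9 and 633.8, with non-overlapping strains, the mutant higher by a log2 value of 0.14 (adjusted p = 0.0532). It passed in limma without wild-type array 2, with a pseudocount of 100, with quantile normalization and with a trended variance prior (adjusted p from 0.0351 to 0.0449).

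PRPP, the substrate of the first enzyme, is made by the products of 5 PRS genes. Of these 1 fell in the mutant and none rose, and the median log2 change was -0.08. PRS5 fell from 448.2, 428.4 and 455.8 in wild type to 393.6, 407.7 and 397.4, a log2 change of -0.14 (adjusted p = 0.0341 in limma). PRS2 varied little within a strain, its wild-type arrays averaging 242 ± 0.87 and its mutant arrays 224 ± 1.42 (SD, n = 3 each, adjusted p = 0.0719 in limma). PRS3 and PRS4 had log2 changes of -0.06 and -0.08, with non-overlapping strains in both, and PRS1 one of 0.002. The call of PRS5 ended when 1 of 5 arrays was left out: its adjusted p in limma was then 0.0829 for wild-type array 1, 0.0784 for wild-type array 3, and 0.102, 0.0647 and 0.11 for mutant arrays 1, 2 and 3.

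On the branch to GMP, 1 of 5 genes fell and none rose. IMD2, for an IMP dehydrogenase, fell from 468.0, 473.0 and 454.4 to 413.8, 424.7 and 401.2, a log2 change of -0.16 (adjusted p = 0.0235 in limma). Its probe set is of a kind with sequence shared between genes, and the IMD genes are close copies, so part of what it reads may be another IMD gene. IMD3 and IMD4 had log2 changes of -0.06 and 0.04, GUA1, the GMP synthase, one of 0.02, and GUK1, the guanylate kinase, one of 0.05, none past the test. The adjusted p of IMD2 in limma rose to 0.06 and 0.0571 without wild-type arrays 1 and 2, and to 0.0657 and 0.0911 without mutant arrays 1 and 3, which ended its call.

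The list of genes that recover or take up purines held the largest changes of the 7 lists on the log2 scale used, FCY21 and URH1. Of 18 measured, 4 fell and 1 rose, and the median log2 change was -0.03. FCY21, of the purine-cytosine permease family, fell from 96.1, 91.8 and 103.1 to 50.0, 53.0 and 52.4, with a log2 change of -0.62 (adjusted p = 0.000198 in limma). FCY22, a relative in the same family, read 25.0, 23.5 and 23.3 against 14.3, 18.7 and 17.3 and fell too (log2 change -0.20, adjusted p = 0.018 in limma). FCY22 is dim, and the log2 scale understates its change. Its mutant mean was 1.43-fold lower, against 1.27-fold for URH1. FCY2, the main purine-cytosine permease, read 952.0, 1017.4 and 991.7 against 824.9, 925.7 and 886.0, without overlap (log2 change -0.16, adjusted p = 0.0516 in limma), and is named outside the rule for named genes. It passed without mutant array 2, with quantile normalization, with median centring, among genes above background alone and with a trended variance prior (adjusted p from 0.0417 to 0.0489 in limma). The call of FCY22 ended when wild-type array 1 or either of mutant arrays 1 and 3 was left out, with adjusted p of 0.0533, 0.0548 and 0.0603 in limma.

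Among the salvage enzymes, URH1, a uridine nucleosidase that also acts in nucleoside salvage, fell from 243.1, 239.6 and 228.2 to 186.1, 184.0 and 190.7, a log2 change of -0.30 (adjusted p = 0.00338 in limma). AAH1, adenine deaminase, which turns adenine into hypoxanthine, fell from 538.5, 479.2 and 543.2 to 410.7, 461.9 and 442.9, a log2 change of -0.23 (adjusted p = 0.0313 in limma). PNP1, purine nucleoside phosphorylase, rose from 259.1, 259.2 and 263.6 to 294.8, 279.9 and 294.0, a log2 change of 0.14 (adjusted p = 0.033 in limma). The AAH1 call was lost without wild-type array 1 (0.0852) or 3 (0.0724) or mutant array 1 (0.0922) or 3 (0.0901), and the PNP1 call without any wild-type array (0.0525 to 0.0779), mutant array 1 (0.102) or mutant array 3 (0.116), as adjusted p in limma. The kinase genes ADK1, ADK2 and ADO1 and the AMP deaminase gene AMD1 had log2 changes of -0.08, -0.01, 0.02 and -0.09 and did not pass.

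**Figure D4:**
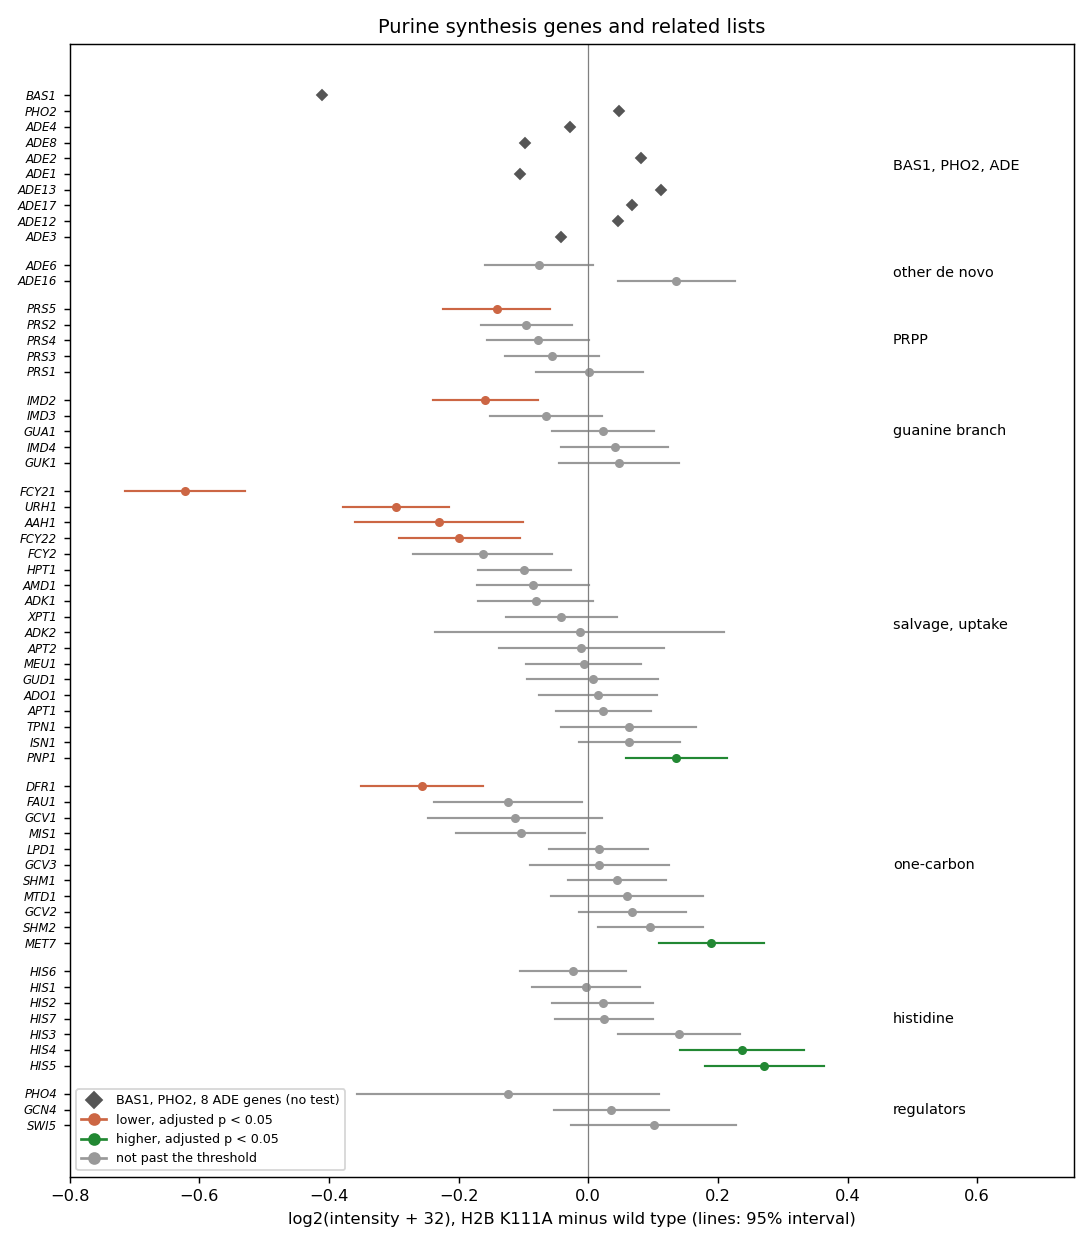
Log2 change, mutant minus wild type, (x axis) for BAS1, PHO2, the 8 ADE genes (diamonds, without interval or test) and 51 genes of the 7 related lists (circles with 95% intervals), coloured by whether limma's adjusted p was under 0.05. On this scale FCY21 at -0.62 is the lowest of all the genes shown and BAS1, chosen with its change known, the next at -0.41. The scale understates the change of dim genes such as FCY22, whose mutant mean was 1.43-fold lower against 1.39-fold for BAS1.

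One-carbon metabolism gave 1 rise and 1 fall among 11 measured genes, with a median log2 change of 0.02. DFR1, dihydrofolate reductase, fell from 166.7, 180.2 and 184.1 to 147.4, 140.0 and 141.2, a log2 change of -0.26 (adjusted p = 0.0075 in limma). MET7, which adds glutamate residues to folates, rose from 331.3, 317.4 and 336.4 to 385.7, 380.1 and 370.9, a log2 change of 0.19 (adjusted p = 0.0134 in limma), and its adjusted p was 0.0507 without mutant array 1. The known Bas1 targets of this list did not pass. SHM2, the cytoplasmic serine hydroxymethyltransferase, had a log2 change of 0.10 and MTD1, a methylenetetrahydrofolate dehydrogenase, one of 0.06, both named outside the rule after their values were seen. The glycine cleavage genes GCV1, GCV2 and GCV3 had log2 changes of -0.11, 0.07 and 0.02. FAU1, for a methenyltetrahydrofolate synthetase, had one of -0.12 (adjusted p = 0.128 in limma), or -0.18 without mutant array 2 (0.0438).

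In histidine synthesis, whose chain starts from PRPP and ATP and gives off a purine intermediate, 2 of 7 genes rose and none fell. HIS4, a known target of both Bas1 and the amino acid regulator Gcn4, rose from 671.3, 662.9 and 622.5 to 763.0, 754.4 and 806.2, a log2 change of 0.24 (adjusted p = 0.0107 in limma). HIS5 rose from 285.6, 270.9 and 262.0 to 336.1, 326.3 and 345.3, a log2 change of 0.27 (adjusted p = 0.006 in limma). HIS7, another known Bas1 target, named outside the rule after its value was seen, read 249.6, 244.4 and 241.5 in wild type and 254.0, 251.6 and 244.4 in the mutant (adjusted p = 0.651 in limma). HIS1, HIS2 and HIS6 had log2 changes of -0.003, 0.02 and -0.02, and HIS3 one of 0.14 (adjusted p = 0.0548 in limma, and 0.0339 to 0.0465 with quantile normalization, a trended variance prior or a pseudocount of 100).

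Among regulators, GCN4, whose protein reads a DNA site like that of Bas1, read 1225.2, 1298.9 and 1239.6 in wild type and 1332.8, 1277.3 and 1250.3 in the mutant. PHO4 read 165.4, 117.7 and 131.4 against 121.2, 108.6 and 141.3. SWI5, which encodes a further partner of Pho2, read 152.9, 130.9 and 131.2 against 148.8, 143.7 and 158.9. The strains overlapped for all 3, and none passed in limma (adjusted p from 0.253 to 0.576, and 0 of 3 at an unadjusted p under 0.05).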

How the data were processed

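The deposited table holds linear intensity values for 10928 probe sets on 6 arrays, made from biotin-labelled cRNA per the labels' protocols. The authors had scaled the arrays alike, by a method not given in the sources used here. Of these probe sets the array annotation gives 7244 probe sets 1 gene symbol, 1 several and 3683 none. By gene identifier 5498 matched the RefSeq R64 table, and 1746 did not match it and were taken as those of another organism. Of genes with several probe sets (47) the brightest was kept, leaving 5449 genes.

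Values were taken as log2(intensity + 32) without further normalization, and a two-sided moderated test came from limma 3.58.1 (lmFit, eBayes; R 4.3.3). Adjusted p-values are Benjamini-Hochberg values across the 5449 genes, called under 0.05. The number of arrays limits the precision. The genes and lists were chosen with earlier results of these data known. Named are all 10 genes, list genes past the threshold, the de novo and regulator lists, up to 4 others per list in alphabetical order, and the 5 genes nearest to BAS1. Alternatives were another pseudocount, scaling, background filter, replicate block, variance prior, probe set rule and leaving out each array. Figures were drawn with matplotlib 3.10.9.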

Additional observations from a re-analysis of the deposited data

How the results depend on the processing

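BAS1 kept a log2 change below 0 in every setting tried, from -0.50 to -0.32. The median of the 8 ADE genes was 0.009 and ran from -0.0073 to 0.022 when 1 array was left out. The counts over all genes, 377 higher and 415 lower, were 232 and 257 with a pseudocount of 1, and 170 and 176 with the replicate number as a block. Without 1 array they ran from 91 to 271 and from 122 to 294. The labels give no sign that the replicate numbers pair the samples. Deviations from the strain means correlated at -0.23, -0.06 and -0.17 for same-numbered arrays and at -0.04 to 0.26 for differently numbered ones. Deviations from a mean of 3 arrays are not independent, so these values cannot decide whether samples were paired. Of the 51 related genes, 4 higher and 7 lower became 3 and 3 with that block, 1 and 3 at an adjusted p threshold of 0.01, chosen after seeing the data, and 2 to 4 and 3 to 8 without 1 array. URH1, FCY21, DFR1, HIS4 and HIS5, 5 of 11, kept their calls and directions in each of these settings, with 1 exception. HIS4 (adjusted p = 0.0107 in limma) did not pass the stricter threshold. The pseudocount of 1 and the block each ended the calls of PRS5, AAH1 and PNP1, and the block also those of IMD2 and FCY22. BAS1, chosen on this comparison and so only described, had an adjusted p in limma of 0.0647 with that pseudocount and 0.00963 with the block. The 3 arrays of a strain are too few for the outlier test, and no result was singled out for a closer look.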
